A study of Mus musculus with 16 samples.

Results

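The cytochrome P450 family 2 genes (Cyp2) of the mouse kidney were followed through 16 RNA-seq libraries of Klotho mutant and control mice. Members were the protein-coding genes named Cyp2, a letter and digits, and 37 of the 30277 genes listed met this rule. They fell into 11 subfamilies, with 8 genes each in Cyp2c, Cyp2d and Cyp2j, 4 in Cyp2b, 3 in Cyp2a and 1 each in Cyp2e, Cyp2f, Cyp2r, Cyp2s, Cyp2t and Cyp2u. A further 7 Cyp2 loci, 6 pseudogenes and the polymorphic pseudogene Cyp2d13, were left out by the rule. The mice carried the recessive Klotho allele Kl, congenic on 129S1/SvlmJ, and were 44 to 54 days old. Whole perfused kidneys were profiled as polyadenylated RNA from 5 Kl/Kl males, 3 control males (each +/Kl), 4 Kl/Kl females and 4 control females (each +/+). The labels give renal failure for every Kl/Kl mouse and normal kidney function for the controls. Control genotype therefore goes with sex, and the labels do not state that each library came from a separate animal, so p-values measure the spread between these libraries.

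Cyp2 enzymes are haem monooxygenases of the endoplasmic reticulum that draw electrons from the reductase encoded by Por, helped by cytochrome b5. They oxidise drugs, toxins, steroids and fatty acids, and Cyp2c and Cyp2j enzymes turn arachidonic acid into epoxides that act on renal transport and vessels. In rodents many Cyp2 genes differ between the sexes, set in the liver largely by the rhythm of growth hormone and in the kidney largely by androgen, and in the kidney most are made by the proximal tubule.

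Kl itself stood at 0.0235, 0.0390, 0.0452, 0.186 and 0.265 TPM in Kl/Kl males, against 15.1, 11.4 and 4.14 TPM in control males. In females it stood at 0.321, 0.0920, 0.0268 and 0.518 TPM in Kl/Kl mice, against 21.2, 9.18, 18.3 and 14.1 TPM in controls. No Kl/Kl library overlapped a control, and 2-sided exact permutation tests gave p = 0.0357 in males and p = 0.0286 in females, the smallest these designs allow. TPM here means reads scaled to the library and to the genomic span of a gene, introns included. Each library rested on an estimated 21.6 to 31.7 M reads. Of the libraries, 2 stood apart. Kl/Kl female 3, the oldest mouse at 54 days, had a summed level of 17.2 TPM over 10 proximal tubule markers, against 740 to 1009 TPM in the other Kl/Kl females, and its Slc34a1 was 0.343 TPM. It carried 1118 TPM of 6 airway markers and 1933 TPM of 7 heart muscle markers, lists that summed to at most 0.118 and 2.03 TPM in every other library. Its markers were thus unlike those of every other library labelled kidney, and its tissue label could not be checked here. Control male 3 had 54.3% of its TPM from mitochondrial genes, against 35.4% to 44.8% in the other males, and 583 TPM of the proximal tubule markers, against 922 and 1036 TPM in the other control males. Each comparison is therefore given with all libraries and without the library that stood apart. Kidney libraries mix cell types, so fewer proximal tubule cells and less RNA per cell cannot be told apart. The summed proximal tubule markers were 396 to 859 TPM in Kl/Kl males, against 583 to 1036 TPM in control males. Within the list Slc5a12 was higher and Slc22a6 lower in every Kl/Kl male than in every control male, and the other markers overlapped. In females the sum was 17.2 to 1009 TPM in Kl/Kl mice, against 1038 to 1269 TPM in controls, without overlap. The part of these marker levels in the results below was not tested.

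Of the 37 genes, 15 averaged at least 1 TPM in at least 1 group: Cyp2a4 and Cyp2a5, Cyp2c23, the Cyp2d genes Cyp2d9, Cyp2d12, Cyp2d22 and Cyp2d26, Cyp2e1, Cyp2f2, the Cyp2j genes Cyp2j5, Cyp2j6, Cyp2j9, Cyp2j11 and Cyp2j13, and Cyp2s1. Another 17 stayed under 0.1 TPM in every library, with at most an estimated 51 reads, and 7 of the 8 Cyp2c genes and 3 of the 4 Cyp2b genes were among them. The genes lie in clusters. In the coordinates of the deposited tables (mm39) Cyp2a4 spans chromosome 7 from 26006594 to 26014514, Cyp2a5 26534730 to 26542974 and Cyp2s1 25501900 to 25516339, and Cyp2e1 lies on the same chromosome at 140343652 to 140354901. Cyp2d22 (82254728 to 82264462), Cyp2d9 (82317638 to 82341047), Cyp2d12 (82439273 to 82444605) and Cyp2d26 (82674302 to 82678496) lie on chromosome 15. Cyp2j13 (95915771 to 95965784), Cyp2j11 (96182745 to 96236900) and Cyp2j5 (96517010 to 96552392) lie on chromosome 4.

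**Figure D1:**
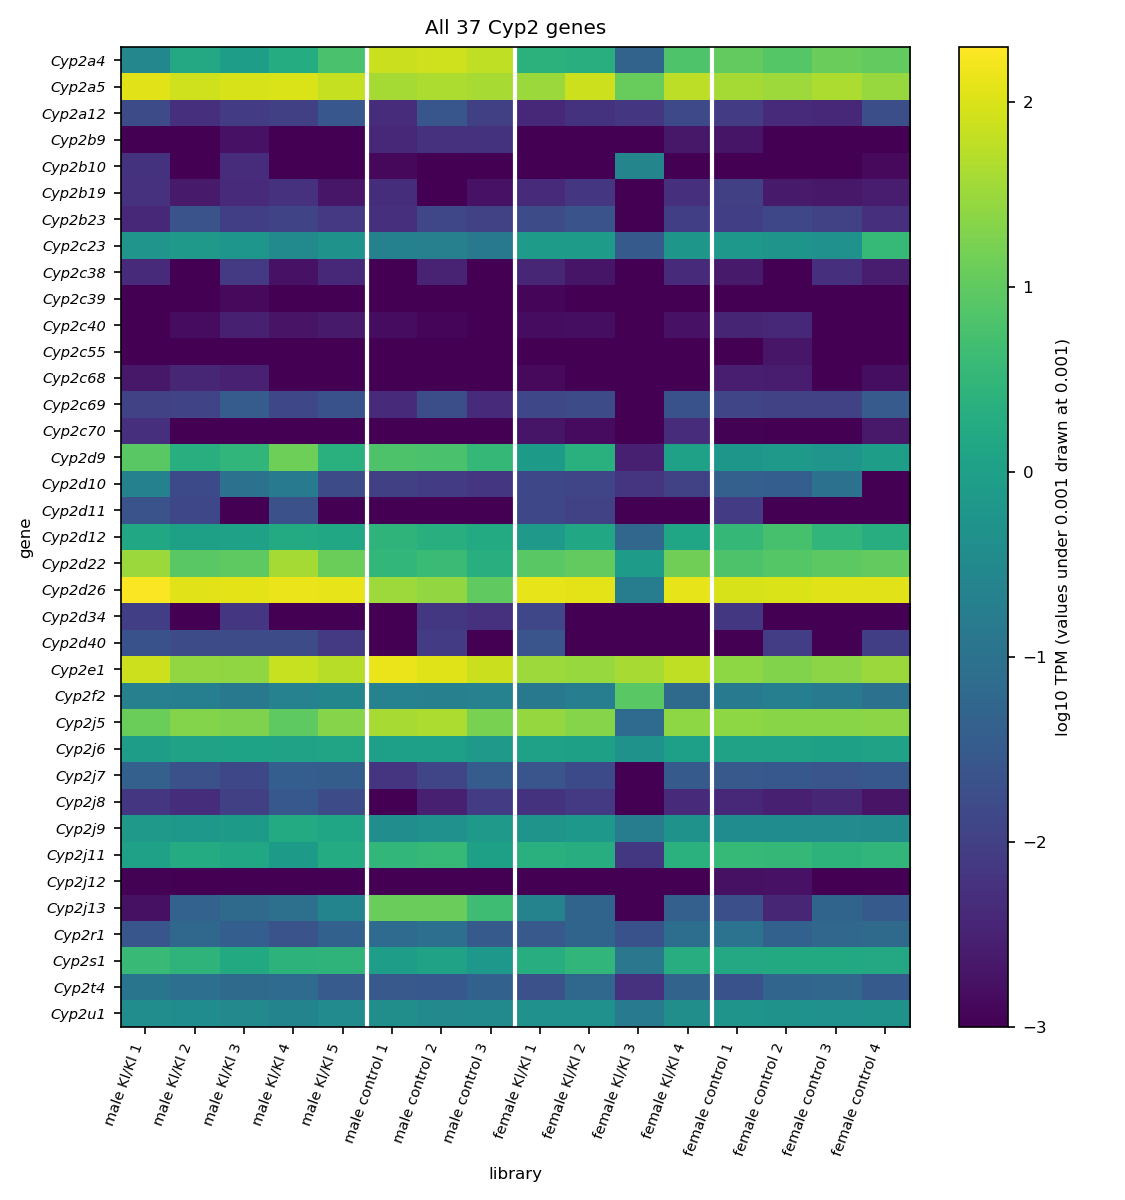
Level of each of the 37 Cyp2 genes (rows) in each of the 16 libraries (columns, white lines between groups), as log10 TPM in colour, with values under 0.001 TPM drawn at 0.001. Cyp2a4 and Cyp2j13 are bright in the 3 control males and dark in the 5 Kl/Kl males, and Kl/Kl female 3 stands out as dark in Cyp2d26 and Cyp2j5 and bright in Cyp2f2 and Cyp2b10.

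Near-identical copies set how far the values of single genes can be trusted, and the pair Cyp2a4 and Cyp2a5 is the closest in the family. Cyp2a4 is a steroid hydroxylase and Cyp2a5 the mouse coumarin hydroxylase, and few residues separate them. Their coding sequences (GENCODE transcripts of GRCm38) are both 1482 bases long and differ at 23 positions, an identity of 98.45%. The longest run they share without a difference is 216 bases, and 40.5% of the 50-base windows of Cyp2a4 occur in another Cyp2a gene, as do 51.6% of those of Cyp2a5. The stretch of coding bases 550 to 669, printed because it holds 6 of the differing bases, shows where a read can be assigned to 1 of the genes, with the differing bases in capitals.
Cyp2a4: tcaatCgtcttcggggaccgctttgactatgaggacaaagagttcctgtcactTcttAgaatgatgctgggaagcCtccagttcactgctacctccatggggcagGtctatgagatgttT
Cyp2a5: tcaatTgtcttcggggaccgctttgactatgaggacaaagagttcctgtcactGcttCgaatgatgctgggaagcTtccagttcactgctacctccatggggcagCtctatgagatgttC

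The promoters of the pair are as alike, and are printed because the genes moved in opposite directions in males. The RefSeq promoters (GRCm38.p6, 250 bases before to 50 after the start, plus strand), at chr7:26306942-26307241 for Cyp2a4 and chr7:26835089-26835388 for Cyp2a5, differ at 5 of 299 aligned bases, an identity of 98.33%. Differing bases are in capitals.
Cyp2a4: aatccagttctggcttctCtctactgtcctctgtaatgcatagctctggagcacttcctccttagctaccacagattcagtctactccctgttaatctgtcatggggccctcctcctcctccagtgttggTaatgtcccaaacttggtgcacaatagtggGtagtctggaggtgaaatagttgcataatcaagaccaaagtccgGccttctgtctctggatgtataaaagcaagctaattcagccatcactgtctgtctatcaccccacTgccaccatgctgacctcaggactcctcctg
Cyp2a5: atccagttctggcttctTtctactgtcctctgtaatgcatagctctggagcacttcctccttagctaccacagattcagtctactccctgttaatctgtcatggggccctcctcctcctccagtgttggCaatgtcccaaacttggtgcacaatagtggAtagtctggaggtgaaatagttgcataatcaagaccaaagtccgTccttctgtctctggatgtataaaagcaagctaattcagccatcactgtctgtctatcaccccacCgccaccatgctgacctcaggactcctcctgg
Both windows hold the letters GTTAAT, the core of a hepatocyte nuclear factor motif, and AGGTCA, a nuclear receptor element, on either strand and without overlap. GTTAAT occurs in 7.10% and AGGTCA in 16.3% of 32851 RefSeq promoters of this length. Neither holds AGAACA, an androgen or glucocorticoid receptor element found in 19.0% of promoters, nor TTCNNNGAA, a STAT element found in 8.30%, nor CAAAGNNCA, another nuclear factor element found in 6.36%. All 5 were searched on both strands.

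Other close copies were low. Cyp2c40, Cyp2c68 and Cyp2c69 are 96.5% to 98.1% identical in coding sequence and none passed 0.1 TPM. Among the Cyp2d genes, Cyp2d9 is 92.1% to 93.3% identical to Cyp2d10, Cyp2d11 and Cyp2d12, and 31.3% of its 50-base windows occur elsewhere in the family, so its level may include reads of its neighbours. The corresponding shares are 17.8% for Cyp2d12, 12.0% for Cyp2d26 and 11.5% for Cyp2d22. Cyp2j13 is at most 80.3% identical to another member and shares 0.411% of its windows, Cyp2j5 shares 0.275%, and Cyp2e1 and Cyp2s1 share none.

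In kidneys of Kl/Kl males the 2 largest falls among the Cyp2 genes tested were Cyp2a4 and Cyp2j13, which fell to 2.93% and 0.935% of the mean of control males. Cyp2d26, Cyp2d22, Cyp2a5 and Cyp2s1 rose. With limma over all 8439 genes that averaged at least 1 TPM in males, 12 Cyp2 genes were tested and 6 passed a Benjamini-Hochberg adjusted p of 0.05, where 5.92% of all genes passed. The 4 that rose compare with 3.74% of all genes, and the 2 that fell with 2.18%. Of the 6, Cyp2s1 reached the filter through the Kl/Kl males alone and Cyp2j13 through the control males alone. These same 6 genes were the ones whose groups did not overlap, which held for 23.5% of all genes. The median log2 change was -0.28 over the 12 Cyp2 genes and 0.19 over all genes. Log2 changes are differences of log2(TPM + 1), which understate the change of low genes. After median-of-ratios scaling, which moved the median of all genes to 0.01, 9 of the 12 passed, 4 higher and 5 lower, where 14% of all genes passed.

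Genes known for sex-biased expression in the mouse kidney moved in the same libraries. The male-biased genes Kap, Acsm3, Cyp4b1, Slc22a30 and Slco1a1 summed to 85.7 to 378 TPM in Kl/Kl males, most of it Kap, against 3643 to 4175 TPM in control males. All 5 were lower in every Kl/Kl male than in every control male, and Slc22a30 and Slco1a1 were at most 0.248 and 0.143 TPM in Kl/Kl males. The female-biased genes Cyp4a14, Slc22a29, Prlr and Slc7a12 summed to 51.7 to 317 TPM in Kl/Kl males, most of it Cyp4a14, against 0.137 to 0.740 TPM in control males, and all 4 were higher in every Kl/Kl male. For comparison, groups of males did not overlap, in either direction, for 23.5% of all genes averaging at least 1 TPM in males, a level that Slc22a29 and Prlr did not reach. Acsm3, Slc22a30 and Slco1a1 reached it through the control males alone, and Cyp4a14 and Slc7a12 through the Kl/Kl males alone. The lists were not picked blind to these data, so their counts are no test against that share. Cyp4b1, Cyp4a14 and Prlr are counted again below among genes that work with the P450 enzymes or belong to other P450 families. In females the male-biased sum was 12.5 to 277 TPM in Kl/Kl mice, against 369 to 755 TPM in controls, most of the latter Kap. Only 2 of these 5 genes were lower in every Kl/Kl female than in every control female. Acsm3 and Slco1a1 were above every control female in at least 1 Kl/Kl female. The female-biased sum was 0.219 to 107.5 TPM in Kl/Kl females, against 54.8 to 79.0 TPM in controls, and 0 of these 4 genes separated the groups. Both lists were chosen with earlier results of these data known, and their part in the Cyp2 changes was not tested.

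Within Cyp2a the pair went in opposite directions. Cyp2a4 stood at 0.287, 1.59, 0.943, 1.95 and 6.06 TPM in Kl/Kl males, against 74.1, 84.5 and 63.4 TPM in control males. Every Kl/Kl male was far under every control, and the log2 change was -4.80 ± 0.43 (SE, limma adjusted p = 7.96e-05). Cyp2a5 stood at 114, 83.0, 97.3, 99.5 and 68.5 TPM in Kl/Kl males, against 39.2, 44.3 and 40.2 TPM in control males. The groups did not overlap here either, and Cyp2a5 rose by 1.13 ± 0.21 (SE, limma adjusted p = 0.0120). The call of Cyp2a5 was lost in a fit blocked by replicate number. Cyp2a4 made up 0.251% to 8.13% of the summed TPM of the pair in Kl/Kl males, against 61.2% to 65.6% in control males, whereas the sum itself overlapped, at 74.5 to 114 TPM in Kl/Kl males and 104 to 129 TPM in control males. How reads that fit both genes were assigned is not given in the sources used here, and its part in the opposite changes was not tested. The third member, Cyp2a12, stayed under 0.1 TPM.

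**Figure D2:**
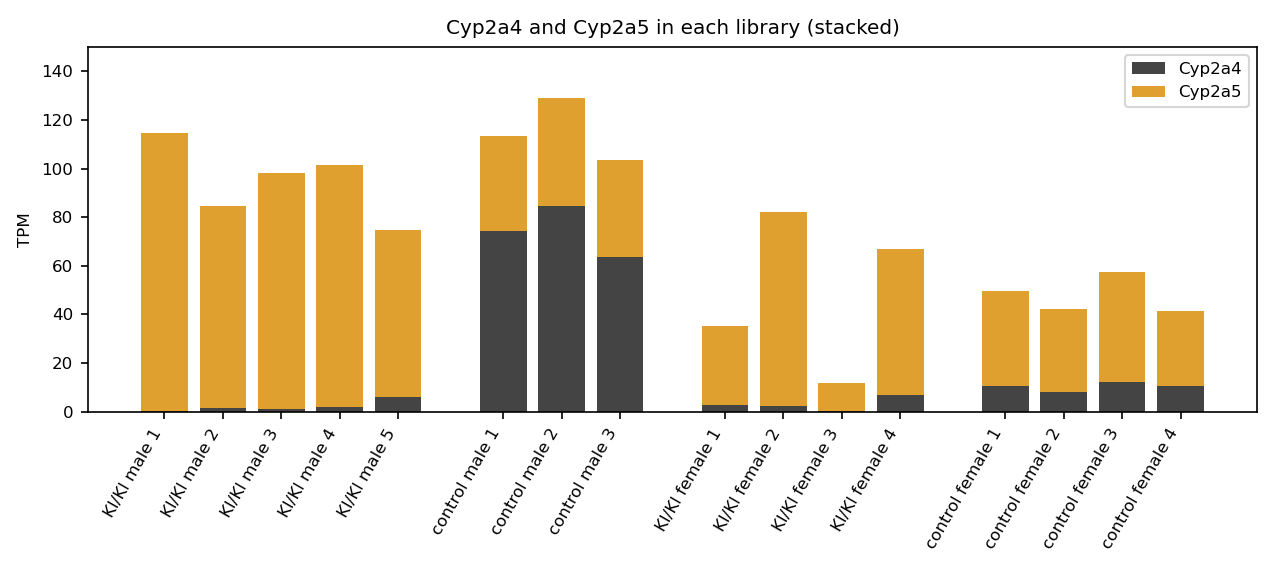
Stacked bars of Cyp2a4 (dark) and Cyp2a5 (orange) in TPM, 1 bar for each library, by group. Cyp2a4 makes up 61.2% to 65.6% of the bar in control males and at most 10.3% in any Kl/Kl library, while bars of Kl/Kl males and control males overlap in height.

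Of the 4 Cyp2d genes tested, 2 rose in Kl/Kl males and the others did not pass. Cyp2d26 stood at 183, 116, 121, 139 and 129 TPM in Kl/Kl males, against 33.2, 27.7 and 10.3 TPM in control males. It rose by 2.62 ± 0.34 (SE, limma adjusted p = 0.00117), and 2.13 ± 0.20 without control male 3, the lowest library (adjusted p = 0.000621). Cyp2d22, often taken as the mouse counterpart of the main human drug-metabolising enzyme of this subfamily, stood at 32.1, 8.74, 9.60, 38.2 and 13.0 TPM in Kl/Kl males, against 3.30, 4.05 and 2.20 TPM in control males. It rose by 2.13 ± 0.45 (SE, limma adjusted p = 0.0240), with a spread of 4.37 times between the lowest and the highest Kl/Kl male. That call was lost when any control male or Kl/Kl male 1 was left out, with adjusted p = 0.0519 to 0.0634, and with no filter on low genes (0.0910). Cyp2d9, a male-predominant testosterone hydroxylase, had 8.79, 2.20, 3.02, 13.2 and 2.32 TPM in Kl/Kl males, against 6.61, 6.01 and 3.33 TPM in control males. The groups overlapped (log2 change -0.11 ± 0.48, limma adjusted p = 0.899). Cyp2d12 had 1.02 to 1.75 TPM in Kl/Kl males, against 1.72 to 2.75 TPM in control males, and did not pass with all libraries (log2 change -0.45, limma adjusted p = 0.103). It passed without control male 3 (-0.56, limma adjusted p = 0.0441) and after median-of-ratios scaling (-0.61, limma adjusted p = 0.0153).

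Cyp2e1, which oxidises ethanol and small solvents and is induced by androgen in the mouse kidney, stood at 79.9, 27.7, 26.4, 70.4 and 52.8 TPM in Kl/Kl males, against 139.7, 108 and 76.6 TPM in control males. Kl/Kl male 1 overlapped control male 3, and the log2 change of -1.16 ± 0.39 did not pass (limma adjusted p = 0.0929). It did not pass without control male 3 (adjusted p = 0.0846), although the groups then no longer overlapped. It passed after median-of-ratios scaling (log2 change -1.41, adjusted p = 0.0348).

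Among the Cyp2j genes, Cyp2j13 was the one whose fall passed with all libraries. Its level was 0.00176, 0.0462, 0.0664, 0.0890 and 0.246 TPM in Kl/Kl males, against 12.0, 12.2 and 4.59 TPM in control males. An estimated 2 to 374 reads lay behind the values of Kl/Kl males, and 8230 to 16890 reads behind those of control males. The log2 change was -3.18 ± 0.25 (SE, limma adjusted p = 3.10e-05), and the ratio of mean TPM, 0.00935, is a larger change than this scale shows. Cyp2j13 reached the filter of 1 TPM through the control males alone. Cyp2j5, an arachidonate epoxygenase of the proximal tubule, stood at 12.8, 21.2, 18.6, 9.69 and 21.5 TPM in Kl/Kl males, against 41.2, 45.1 and 16.9 TPM in control males. Control male 3 lay among the Kl/Kl males. The log2 change was -0.94 ± 0.35 with all libraries (limma adjusted p = 0.128) and -1.37 ± 0.30 without control male 3 (adjusted p = 0.0285). Cyp2j11 followed the same order, with 0.772 to 1.86 TPM in Kl/Kl males, against 3.23, 3.60 and 1.03 TPM in control males. Its adjusted p was 0.222 with all libraries and 0.0260 without control male 3 (log2 change -0.90). Cyp2j6, which is expressed in many tissues, had 0.941 to 1.24 TPM in Kl/Kl males, against 0.687 to 1.00 TPM in control males, and did not pass (limma adjusted p = 0.338).

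Cyp2s1, a largely extrahepatic enzyme inducible through the aryl hydrocarbon receptor, stood at 3.65, 2.77, 1.65, 2.65 and 2.78 TPM in Kl/Kl males, against 0.883, 1.12 and 0.664 TPM in control males. All Kl/Kl males were above all control males, and it rose by 0.95 ± 0.18 (SE, limma adjusted p = 0.0133). That call was lost with no filter on low genes (adjusted p = 0.0512) and in a fit blocked by replicate number. Control males averaged 0.889 TPM, so with all libraries Cyp2s1 reached the filter of 1 TPM through the Kl/Kl males alone. Without control male 3 the Cyp2 calls in males were 3 rises, where 3.16% of all genes rose, and 5 falls, where 7.36% fell, which makes 8 of 12 against 10.5% of all genes. The median log2 change was then -0.46 over the Cyp2 genes and 0.01 over all genes. Cyp2a4, Cyp2a5, Cyp2d26, Cyp2j13 and Cyp2s1 passed with and without that library.

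**Figure D3:**
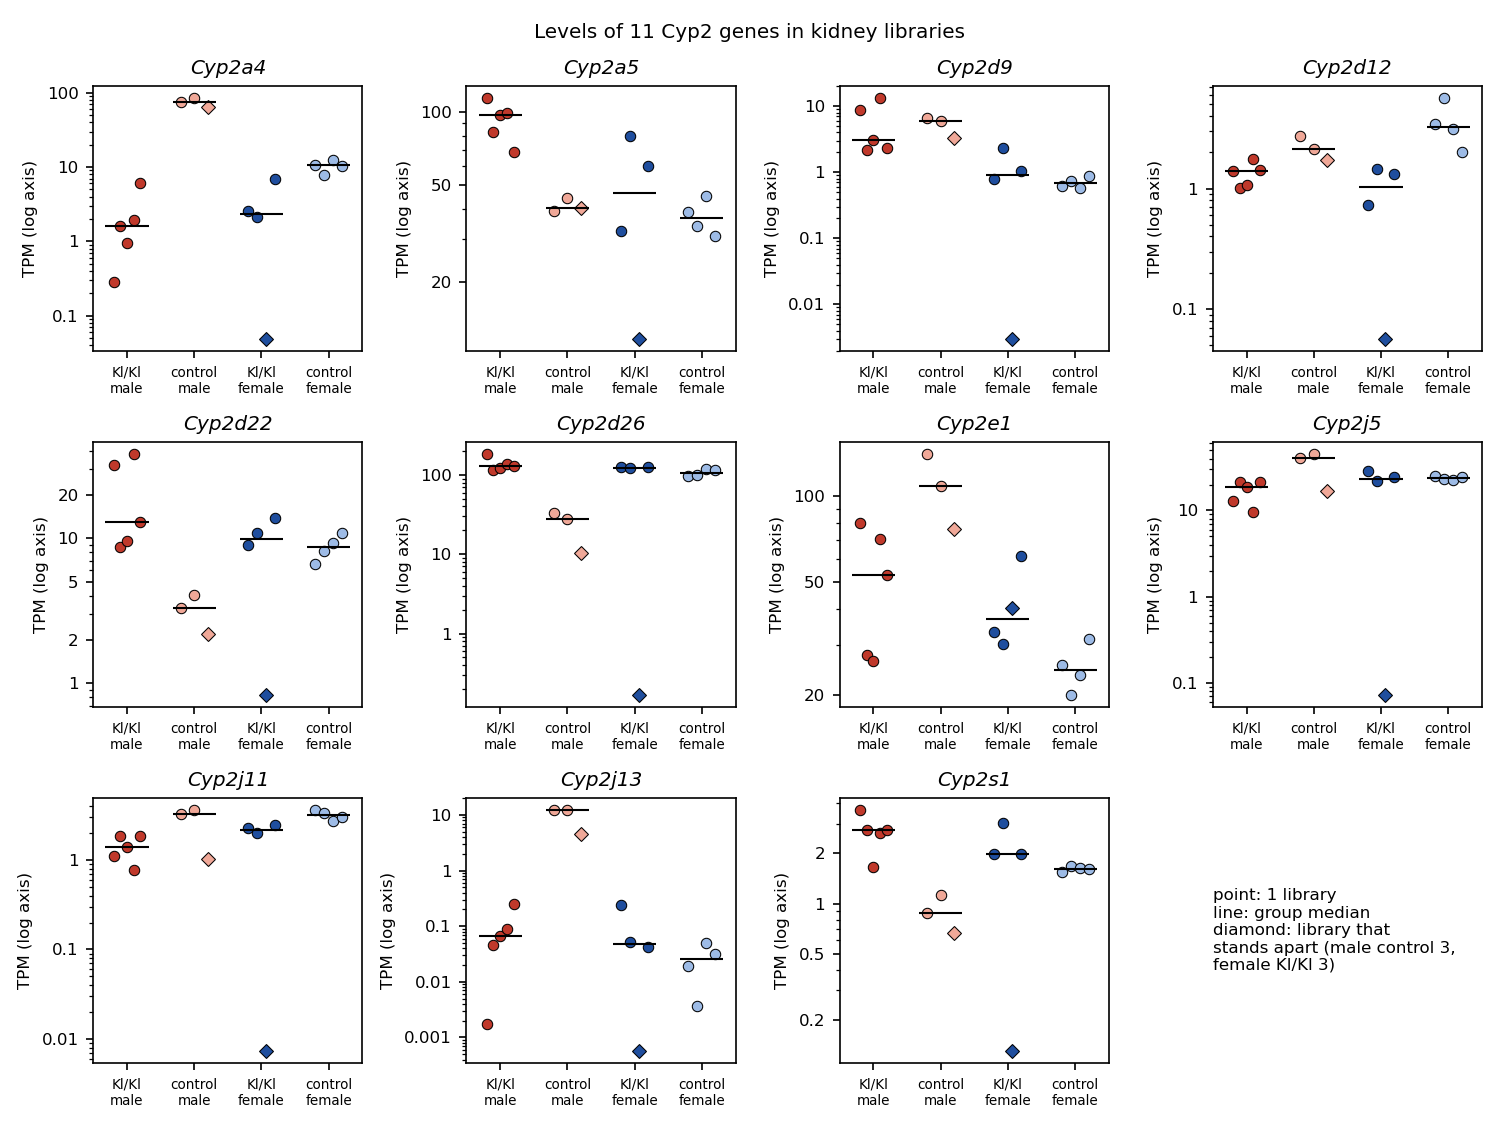
TPM of 11 Cyp2 genes on log axes, 1 point for each library, with group medians as lines and the 2 libraries that stood apart as diamonds. Kl/Kl and control males do not overlap for Cyp2a4, Cyp2a5, Cyp2d22, Cyp2d26, Cyp2j13 and Cyp2s1, and Kl/Kl female 3 is the lowest library for 10 of the 11 genes.

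The 5 Kl/Kl males were not alike in these genes. Kl/Kl males 1 and 4 had the highest Cyp2d22, Cyp2d9 and Cyp2e1 and the lowest Cyp2j5 and Cyp2j11 of the 5, an observation made after the values were seen. The same 2 libraries had the lowest proximal tubule marker sums, 474 and 396 TPM, against 650 to 859 TPM in the other Kl/Kl males. Their liver marker sums were the highest of the group, 15.2 and 19.7 TPM, most of it Apoa1, against 6.25 to 10.6 TPM in the other Kl/Kl males. Control males had 15.6 to 29.2 TPM of that list, most of it Ttr at 14.7 to 27.4 TPM, with Apoa1 at 0.429 to 0.883 TPM. Ttr was 2.49 and 2.52 TPM in Kl/Kl males 1 and 4, so the sums of these groups rest on different genes. Alb was at most 0.184 TPM in every male library, and Cps1 was at the value of no read. Adrenal cortex markers summed to 15.4 TPM in Kl/Kl male 1 and 74.1 TPM in Kl/Kl male 2, against 1.29 to 1.70 TPM in the other Kl/Kl males and 0.643 to 0.764 TPM in control males. The part of these marker levels in the Cyp2 values was not tested.

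In females no Cyp2 gene passed. With limma over 8596 genes, 0 of 11 Cyp2 genes tested passed an adjusted p of 0.05, where 0.0349% of all genes passed, and 3 had an unadjusted p under 0.05, 1 higher and 2 lower, as did 4.82% of all genes. With limma's array weights, which give less weight to libraries that deviate, 1 passed, Cyp2a4, where 3.8% of all genes passed. Without Kl/Kl female 3 again 0 of 11 passed, where 0.103% of all genes passed, and 6 had an unadjusted p under 0.05, 3 higher and 3 lower, as did 18.4% of all genes. The sets of 11 are not the same. Cyp2f2 reached the filter only through Kl/Kl female 3, and without that library Cyp2c23 took its place, through control female 4. Counts and medians with and without Kl/Kl female 3 therefore cover different sets. Groups did not overlap for 3 of 11 with all libraries (8.33% of all genes) and for 5 of 11 without Kl/Kl female 3 (16.1%). The median log2 change was -0.36 over the Cyp2 genes and -0.16 over all genes, and 0.07 and 0.06 without Kl/Kl female 3.

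The values of the females show where Kl/Kl female 3 decides. Cyp2a4 stood at 2.59, 2.13, 0.0482 and 6.89 TPM in Kl/Kl females, against 10.5, 7.86, 12.3 and 10.4 TPM in control females. All 4 Kl/Kl females were under all controls, with a log2 change of -1.84 ± 0.55 with all libraries and -1.32 ± 0.30 without Kl/Kl female 3 (limma adjusted p = 0.745 and 0.0940). Cyp2a5 was spread more widely, at 32.5, 80.1, 11.7 and 60.2 TPM in Kl/Kl females, against 39.0, 34.1, 45.0 and 30.9 TPM in control females. Cyp2a4 made up 0.412% to 10.3% of the summed TPM of the pair in Kl/Kl females, against 18.7% to 25.2% in control females, without overlap. Cyp2d26 stood at 124.5, 122, 0.167 and 124.3 TPM in Kl/Kl females, against 96.5, 98.4, 117.7 and 115.1 TPM in control females. It was nearly absent in Kl/Kl female 3 and slightly above every control in the other Kl/Kl females, with a log2 change of -1.47 ± 1.49 with all libraries and 0.21 ± 0.09 without that library (limma adjusted p = 0.260 for the second). Cyp2d12 had 0.734, 1.46, 0.0561 and 1.31 TPM in Kl/Kl females, against 3.42, 5.63, 3.12 and 2.00 TPM in control females. Again no Kl/Kl female reached a control, with a log2 change of -1.02 ± 0.24 without Kl/Kl female 3 (limma adjusted p = 0.102).

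Cyp2e1 had 33.4, 30.1, 40.2 and 61.2 TPM in Kl/Kl females, against 25.5, 19.98, 23.5 and 31.5 TPM in control females. Here Kl/Kl female 3 lay within its group, and the log2 change was 0.66 ± 0.25 (limma adjusted p = 0.745). Cyp2j5 had 29.0, 22.1, 0.0720 and 24.8 TPM in Kl/Kl females, against 24.8, 23.3, 22.8 and 24.4 TPM in control females. Without Kl/Kl female 3 its log2 change was 0.07 ± 0.09. Cyp2j11 had 2.27, 2.01, 0.00731 and 2.44 TPM in Kl/Kl females, against 2.69 to 3.57 TPM in control females. Cyp2s1 had 2.00, 3.05, 0.129 and 2.00 TPM in Kl/Kl females, against 1.55 to 1.67 TPM in control females. All 4 Kl/Kl females lay under every control for Cyp2j11, and the Kl/Kl females other than Kl/Kl female 3 lay above every control for Cyp2s1. Cyp2d22 overlapped, with 8.98, 10.8, 0.824 and 13.9 TPM in Kl/Kl females and 6.70 to 10.9 TPM in control females. Cyp2j13 was too low in females to be tested, at 0.240, 0.0522, 0.000566 and 0.0430 TPM in Kl/Kl females and 0.00371 to 0.0503 TPM in control females. Another pair of genes stood high in Kl/Kl female 3 alone. Cyp2f2, the naphthalene-oxidising enzyme of airway club cells, stood at 8.74 TPM there, against at most 0.265 TPM elsewhere, beside the 1118 TPM of airway markers. Cyp2b10, a target of the constitutive androstane receptor, stood at 0.259 TPM there and under 0.01 TPM elsewhere.

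**Figure D4:**
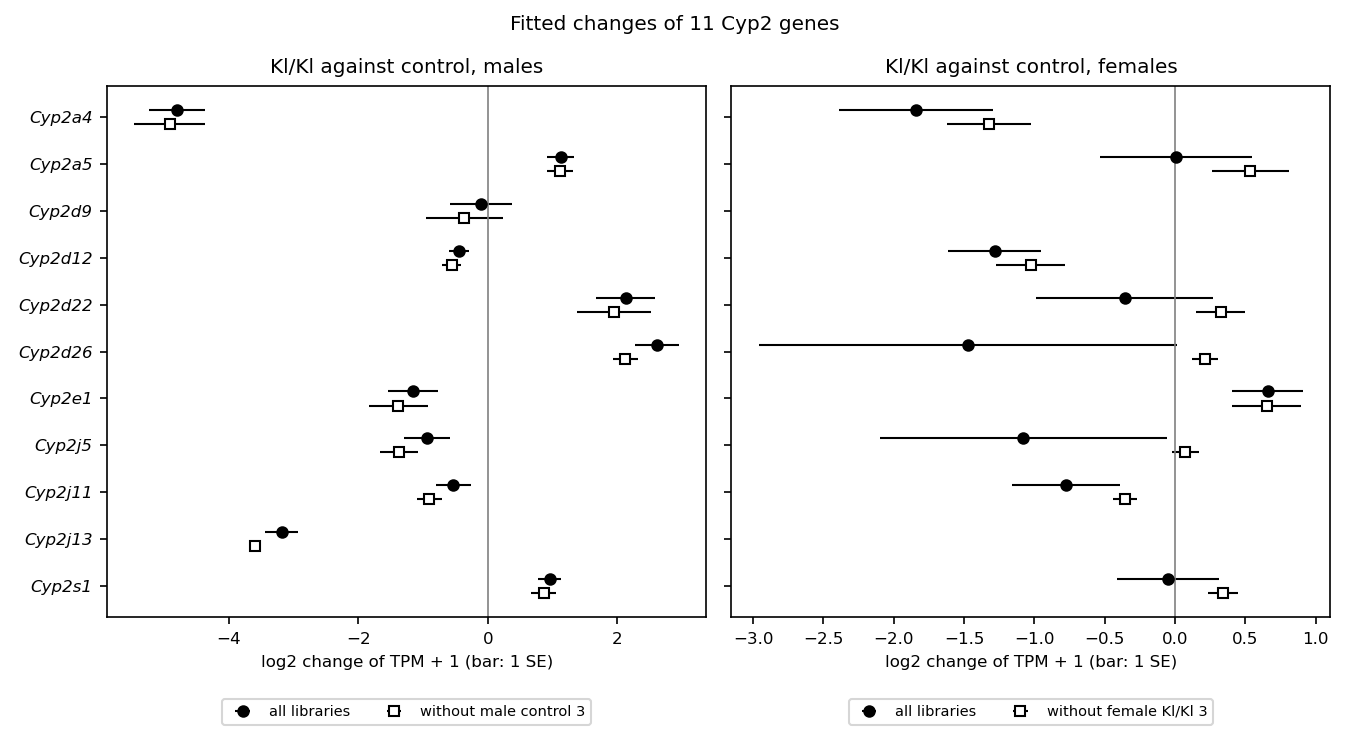
Log2 change of TPM + 1 (points, with bars of 1 SE) in Kl/Kl against control males (left) and females (right), with all libraries (filled circles) and without the library that stood apart (open squares). In females the SE of Cyp2d26 and Cyp2j5 is 1.49 and 1.02 with all libraries and 0.09 for both without Kl/Kl female 3, and Cyp2d9 and Cyp2j13 were too low to be tested there.

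The change in females was then set against the change in males. With all libraries 1 of 12 Cyp2 genes differed, where 0.211% of 8535 genes did. This was Cyp2j13, which was too low in both groups of females to fall on the log2(TPM + 1) scale, so the difference restates its fall in males and nothing is read from it. Without Kl/Kl female 3 and control male 3 there were 4 of 12, Cyp2j13 again among them, where 3.89% of 8696 genes differed. Of the 4, 3 were positive, as were 3.43% of all genes, and 1 negative, as were 0.46%. For Cyp2a4 (3.59 ± 0.67, limma adjusted p = 0.0107) and Cyp2j5 (1.45 ± 0.32, limma adjusted p = 0.0269) the change was more positive in females than in males. For Cyp2d26 the change was less positive in females (-1.91 ± 0.21, limma adjusted p = 0.000272). Cyp2a4 averaged 10.3 TPM in control females and 74.0 TPM in control males, and Cyp2d26 106.9 TPM and 23.7 TPM. The part of these control levels in the differences was not tested. Cyp2e1 came near the threshold (2.03 ± 0.55, limma adjusted p = 0.0580). The calls of Cyp2a4, Cyp2j5 and Cyp2d26 were absent with all libraries, where the difference for Cyp2j5 was -0.14 ± 1.13. For Cyp2j5 it was 1.01 when Kl/Kl female 3 alone was left out (limma adjusted p = 0.368) and 0.29 when control male 3 alone was left out (limma adjusted p = 0.949). A fixed offset between the 2 tables cancels in this comparison, but the controls differ in genotype between the sexes.

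Control males and control females are given side by side with no test, since the tables were scaled separately and sex goes with control genotype. Of the 15 genes that averaged at least 1 TPM in a group, every control male was above every control female for 6, below for 5, and the groups overlapped for 4. The share of all genes whose controls do not overlap was not computed, so this count is not read as particular to the Cyp2 genes. The ratio of the male to the female control mean was 367 for Cyp2j13, 7.56 for Cyp2d9, 7.21 for Cyp2a4 and 4.30 for Cyp2e1. It was 1.47 for Cyp2j9 and 1.41 for Cyp2f2. It was 0.142 for Cyp2c23, 0.222 for Cyp2d26, 0.363 for Cyp2d22, 0.550 for Cyp2s1 and 0.801 for Cyp2j6, while Cyp2a5, Cyp2d12, Cyp2j5 and Cyp2j11 overlapped. The Cyp2c23 ratio leans on control female 4, at 3.51 TPM, against 0.482 to 0.684 TPM in the other control females. Cyp2c23 is among the 15 genes only through that library, and Cyp2f2 only through Kl/Kl female 3. For scale, the column totals of the tables differ by a factor of 1.08. Of the 11 genes whose controls did not overlap, Cyp2j13 and Cyp2a4 fell in Kl/Kl males, and Cyp2d26, Cyp2d22 and Cyp2s1 rose. Cyp2d9, Cyp2e1 and Cyp2j6 did not pass, and Cyp2c23, Cyp2f2 and Cyp2j9 were not tested in males with the filter of 1 TPM. Mean Cyp2c23 in Kl/Kl males was 2.97 times that in control males, at under 1 TPM in both.

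The levels reached in Kl/Kl males were then read against the range of control females. Cyp2d26 was within that range in 1 Kl/Kl male and above it in 4, Cyp2d22 within it in 2 and above it in 3, and Cyp2s1 within it in 1 and above it in 4. For Cyp2e1 2 Kl/Kl males were within it and 3 above. Cyp2a4 was under it in all 5 Kl/Kl males, at 0.287 to 6.06 TPM, against 7.86 to 12.3 TPM in control females. Cyp2a5 was above it in all 5, and Cyp2j5 was under it in all 5.

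The remaining genes were low. Cyp2c23, a renal arachidonate epoxygenase, had 0.321 to 0.735 TPM in Kl/Kl males, against 0.137 to 0.211 TPM in control males, and 0.0316 to 0.804 TPM in Kl/Kl females, against 0.482 to 3.51 TPM in control females. The groups did not overlap in males and did in females, and its level of 3.51 TPM in control female 4 was far above the other control females. Cyp2j9, known mainly from the brain, had 0.662 to 1.77 TPM in Kl/Kl males, against 0.394 to 0.731 TPM in control males, which overlapped. Cyp2r1, a vitamin D hydroxylase that acts mainly in the liver, had 0.0230 to 0.0579 TPM in Kl/Kl males, against 0.0315 to 0.0844 TPM in control males, and 0.0213 to 0.0824 TPM in Kl/Kl females, against 0.0447 to 0.107 TPM in control females, so the groups overlapped in both sexes. Cyp2u1, a fatty acid hydroxylase, also overlapped in males, with 0.250 to 0.391 TPM in Kl/Kl males and 0.318 to 0.416 TPM in control males. These 4 genes were not tested in males with the filter of 1 TPM.

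Genes that work with the P450 enzymes were read from the same fits, in which 5.92% of all genes passed in males and 10.5% without control male 3. Of 14 genes for electron donors and haem supply, 13 were tested in males and 1 passed, the b5 cytochrome Cyb5a, at 7.87 ± 0.78 TPM in Kl/Kl males (SD, n = 5) and 17.2 ± 0.67 TPM in control males (SD, n = 3), a log2 change of -1.04 (limma adjusted p = 0.00441). Without control male 3, Por and Cpox, an enzyme of haem synthesis, also fell (log2 changes -0.63 and -0.81, limma adjusted p = 0.0128 and 0.00164). Of 17 regulators of P450 transcription, 0 of the 6 tested in males passed in limma, and 3 had an unadjusted p under 0.05, 2 higher and 1 lower, where 26.9% of all genes did. Without control male 3 the growth hormone receptor gene Ghr fell (-0.96, limma adjusted p = 0.000408). The prolactin receptor gene Prlr averaged 1.49 ± 0.63 TPM in Kl/Kl males (SD, n = 5) and 0.0518 ± 0.0325 TPM in control males (SD, n = 3), under the filter with all libraries. Of 5 genes for epoxide handling and arachidonate release, 3 were tested and 2 rose in males, the epoxide hydrolase gene Ephx1 (0.59, limma adjusted p = 0.0299) and the cyclooxygenase gene Ptgs1 (0.49, limma adjusted p = 0.0425). Control males averaged 0.855 TPM of Ephx1 and 0.804 TPM of Ptgs1, so both reached the filter through the Kl/Kl males alone. Of 36 genes of other P450 families, 12 were tested in males. Of these Cyp4a14, Cyp27b1 and Cyp4a10 rose and Cyp4b1 fell, the fatty acid hydroxylases Cyp4a14 and Cyp4b1 by 6.11 and -3.62 (limma adjusted p = 6.36e-05 and 0.000828). Cyp4a14 averaged 0.198 TPM in control males and reached the filter through the Kl/Kl males alone. Cyp4a10 did not pass without control male 3 (limma adjusted p = 0.0512). The median log2 change of the genes tested in males was 0.11 for electron donors and haem supply, 0.29 for regulators, 0.49 for epoxide handling and 0.82 for other P450 families, beside 0.19 for all genes. In females 0 of the 35 genes tested from these 4 lists passed in limma with all libraries, where 0.0349% of all genes passed, and 3 had an unadjusted p under 0.05, where 4.82% did. Without Kl/Kl female 3, where 0.103% of all genes passed, the vitamin D hydroxylase Cyp27b1 passed (2.63, limma adjusted p = 0.0162).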

How the data were processed

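RNA was measured in 16 mouse kidney libraries. Males and females each have a table of TPM, deposited by the authors, with Ensembl gene annotation per the file headers. Build mm39 and Partek come from the submitters' processing notes. How reads were aligned and counted, and whether strand was used, is not given in the sources used here. The values show division by genomic span with an offset of 0.0001 reads, and 73.3% to 75.6% of low genes then gave whole reads (tolerance 0.05), the basis of the estimated reads. They are estimates, so no counting interval or count test was used.

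Values were tested as log2(TPM + 1) with limma 3.58.1 in R 4.3.3 (lmFit, eBayes with trend). Genes averaging 1 TPM or more over the libraries of a fit were kept, with Benjamini-Hochberg adjustment over all of them and a threshold of 0.05. Kl/Kl was compared with control within each sex, and the difference of the changes in a model of 4 group means. The fits were tested on simulated data with independent normal noise. The spread of that noise was taken without the 2 libraries that stood apart, so the simulation does not speak for fits that include them. Kl was tested by exact permutation. Tables, sequences and plots were handled with Python 3.11.15, pandas 2.3.3, NumPy 2.4.6 and matplotlib 3.10.9.

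Genes were named by a rule: Kl, each Cyp2 gene past the threshold in any fit or averaging 5 TPM or more in any group, and up to 4 genes of each partner list past the threshold. Low Cyp2 genes named beside these were chosen after their values were seen. The members and lists were chosen with earlier results of these data known. Alternatives were pseudocount 0.1, a filter of 0.1 TPM or none, median-of-ratios scaling, array weights, a replicate block and leaving out each library. Sequences came from RefSeq and GENCODE tables of GRCm38, and all 37 members matched a coding sequence and 31 a promoter. Coordinates of genes are mm39 and those of promoters GRCm38.p6.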

Additional observations from a re-analysis of the deposited data

Results flagged for a closer look

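Of 45 groups of 4 or 5 libraries examined, 7 held a library far from the others, and 6 of the 7 were Kl/Kl female 3. A rate of 1 in 20 would give 2.25, but it does not hold here, since the genes share the same libraries. Cyp2f2 was examined only because of its level in Kl/Kl female 3, and Cyp2c23 only because of control female 4, so these 2 flags followed from the choice of genes. The gap of the extreme library to its neighbour, as a share of the group's range, was 0.996 for Cyp2d26 (0.167 TPM), 0.954 for Cyp2f2 (8.74 TPM), 0.922 for Cyp2j5 (0.0720 TPM), 0.891 for Cyp2j11 (0.00731 TPM), 0.874 for Cyp2j6 (0.508 TPM) and 0.830 for Cyp2c23 (0.0316 TPM) in that library. The other was control female 4 for Cyp2c23 (3.51 TPM), with a share of 0.885.

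Among the genes tested in both sexes, the change in Kl/Kl females minus that in Kl/Kl males passed without Kl/Kl female 3 and control male 3 for Cyp2a4 (3.587), Cyp2j5 (1.446) and Cyp2d26 (-1.912). With all libraries none of these passed in limma, with unadjusted p = 0.00139 for Cyp2a4, 0.904 for Cyp2j5 and 0.0213 for Cyp2d26.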

How the results depend on the processing

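Cyp2a4, Cyp2d26 and Cyp2j13 passed in males under every alternative run. In males the 4 rises became 2 with no filter and 2 with a replicate block, the 2 falls became 5 after median-of-ratios scaling (8.24% of all genes fell) and 6 with array weights (17.2%), and the total of 6 became 10 with array weights. Calls over all genes were 5.92% in males and 33.5% with array weights, 1.87% with no filter and 2.69% with the block. Leaving out each library in turn gave 5 to 8 Cyp2 calls in males, with 3 to 4 rises and 2 to 5 falls, 5 falls without control male 3, while 2.2% to 10.5% of all genes passed. In females the 0 calls became 1, a fall, with array weights, where 3.8% of all genes passed. In the difference between the sexes the 1 call, Cyp2j13, which is too low in females to be read, became 6 with array weights (4 higher, 2 lower, where 12.1% of all genes passed, against 0.211%) and 4 without both libraries that stood apart (3 higher, 1 lower). Leaving out each library in turn gave 1 to 3 calls there, with 1 to 2 higher and 0 to 1 lower, the most without Kl/Kl female 3. The difference for Cyp2j5 was -0.14 with all libraries, 0.12 after median-of-ratios scaling, 1.29 with array weights, 1.45 without both, and -0.59 to 1.01 leaving out each library (0.29 without control male 3, 1.01 without Kl/Kl female 3). The Kl difference was -3.67 to -2.85 in males (p = 0.0571 to 0.0952, exact permutation) and -3.93 to -3.55 in females (p = 0.0571, exact permutation) when a library was left out, and those designs cannot reach 0.05. With a filter of 0.1 TPM 7 Cyp2 genes passed in males, Cyp2c23 in addition. Cyp2d22 was not called with no filter (adjusted p = 0.0910), nor Cyp2s1 (0.0512). Under the block Cyp2a5 and Cyp2s1 were not called (adjusted p = 0.0548 and 0.0563). Deviations of same-numbered libraries from their group means had correlations of -0.177 to 0.041 in males and -0.116 to 0.290 in females. Kl/Kl female 4 (0.290) correlated best with its same-numbered control. With so few libraries these values cannot settle whether the numbers pair the samples. The array weights of 1 fit stopped before convergence. The cause of these changes was not tested.

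The limits are 3 control males of 1 genotype, 2 libraries that stand apart, TPM without counts, and no stated assignment of reads between close copies such as Cyp2a4 and Cyp2a5.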
